A study of Mus musculus with 36 samples.

Results

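The radiation effect in cardiac fibroblasts was set against the radiation effect in cardiac endothelial cells, 28 days after a single dose of 12 Gy to the mouse heart. For every gene, the quantity is the irradiated minus sham difference in fibroblasts minus the same difference in endothelial cells, on the log2 scale, and it is called the log2 difference below. It rests on 8 of the 36 RNA sequencing libraries of the series, taken by their labelled cell type, treatment and time. The 4 groups are fibroblasts after 12 Gy, fibroblasts after sham treatment, endothelial cells after 12 Gy and endothelial cells after sham treatment, with 2 libraries each. All mice were C57Bl6J with the genotype WT, and hearts were treated with a small animal microirradiator. The rest of the series holds the same cell types at 6 hours and 7 days and myocytes at all 3 times. Whether the libraries of a group came from separate animals is not labelled, so p-values here take only the variation between libraries into account, which may be technical.

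Ionizing radiation breaks DNA and activates the transcription factor p53, whose targets halt the cell cycle, repair damage or start cell death. Damaged and dividing cells can also leak DNA or RNA into the cytosol, where sensors start interferon production, and interferon in turn raises genes of antiviral defence and of antigen presentation. Endothelial cells line the vessels of the heart and fibroblasts make its matrix, so the same dose meets cells with different baseline programs.

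Libraries held 25.63 to 30.94 M reads in fibroblasts and 25.91 to 45.49 M in endothelial cells, counting 1 RefSeq transcript per gene. Levels are in CPM, read counts scaled to a library size of 1000000 with TMM factors, and library values are given for replicate 1 and then replicate 2. The labelled cell types showed their defining genes. Pdgfra, the receptor that marks cardiac fibroblasts, was at 785 and 869 CPM in irradiated fibroblasts, at 1099.6 and 1163 CPM in sham fibroblasts, at 43.8 and 41.0 CPM in irradiated endothelial cells and at 58.4 and 95.6 CPM in sham endothelial cells. Pecam1, an adhesion molecule of endothelium, was at 9.65 and 9.14 CPM in irradiated fibroblasts, at 10.6 and 10.03 CPM in sham fibroblasts, at 3040.45 and 3195 CPM in irradiated endothelial cells and at 2865 and 2715 CPM in sham endothelial cells. The summed level of 18 fibroblast markers was 84390 to 92290 CPM in fibroblast libraries and 4981 to 7085 CPM in endothelial libraries. In bulk libraries, fewer cells of a type and less RNA per cell cannot be told apart. The second irradiated endothelial library stood farthest from its replicate: on the principal component that separated irradiated from sham libraries it was at 26.8, against 11.8 for the first.

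The 2 cell types differed in their response in 289 of 15674 genes tested, 1.84% of them (edgeR quasi-likelihood test, Benjamini-Hochberg adjusted p under 0.05). The log2 difference was positive for 155 genes, 0.989% of those tested, and negative for 134, 0.855% of those tested. Most of these genes passed the test in endothelial cells alone. Of the 289 genes, 113 rose in endothelial cells and passed no test in fibroblasts, 99 fell in endothelial cells and passed no test in fibroblasts, and 43 rose in fibroblasts and passed no test in endothelial cells. Another 22 changed the same way in both cell types by unequal amounts, 7 changed in opposite directions and 5 passed the test on neither side. Taken alone, the fibroblast response held 348 genes, 2.22% of those tested, with 301 higher and 47 lower. The endothelial response held 2478 genes, 15.8% of those tested, with 1292 higher and 1186 lower. Of the fibroblast genes 64.7% also passed the test in endothelial cells, and of the endothelial genes 9.1% also passed it in fibroblasts. In all 289 genes every fibroblast ratio of an irradiated to a sham library lay on one side of every endothelial ratio, which held for 32.2% of all genes tested. Ratios apart in this way largely fix the direction when 1 library is left out. A kept direction is therefore no separate test of these genes.

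The number of genes depended on single libraries. It was 146 and 114 without the first and the second irradiated fibroblast library, and 85 and 110 without the first and the second sham fibroblast library. It was 1212 and 136 without the first and the second irradiated endothelial library, and 176 and 93 without the first and the second sham endothelial library. The fibroblast count of 348 was 210 without the first irradiated fibroblast library and 189 and 199 without the first and the second sham fibroblast library. The endothelial count of 2478 was 1057 without the second irradiated endothelial library and 1386 and 977 without the first and the second sham endothelial library. In each of these 8 fits all 289 genes kept their direction, and 59 genes passed the test in every one of them. The genes named below as past the test of the difference are among these 59 unless the text says otherwise. A fit with all 36 libraries, myocytes included, called 46 genes. Of the 59, the genes Oas1a, Gbp9, H2-T23, Igfbp3, Bax, Nid2, Cd34, Vash1, Ggta1 and Pth1r, described below, did not pass in it, with adjusted p between 0.051 for Oas1a and 0.467 for H2-T23. Cdc45 did not pass with the 8 libraries of 28 days alone (adjusted p = 0.0608).

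**Figure D1:**
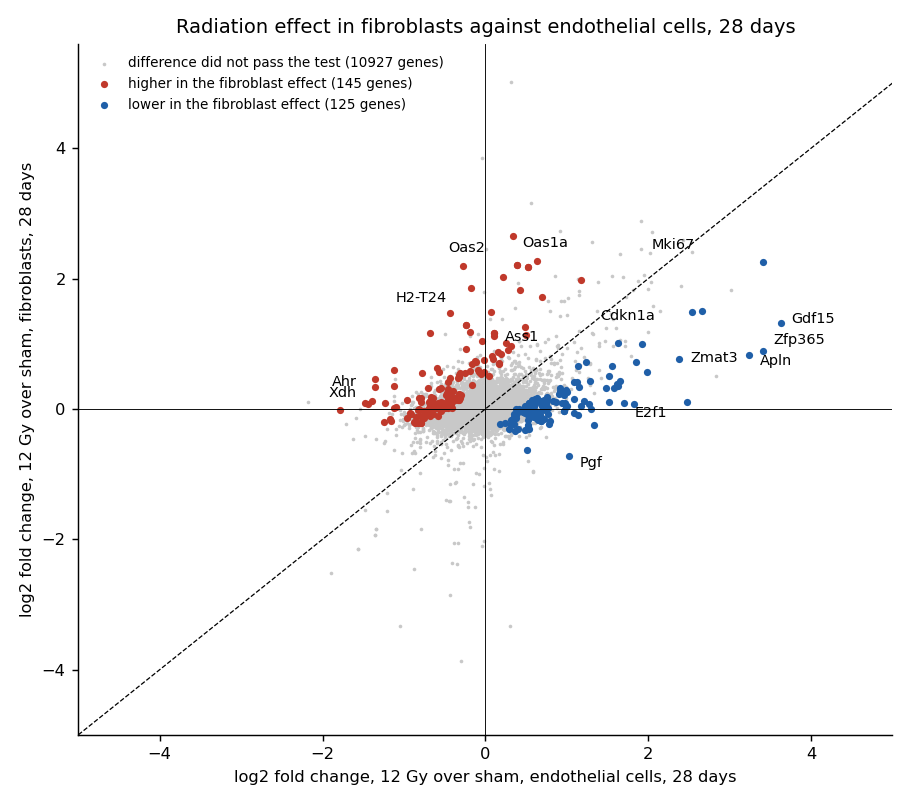
Log2 fold change of irradiated over sham libraries in endothelial cells (x axis) and in fibroblasts (y axis) at 28 days, 1 point per gene, for 11197 genes with a mean of at least 5 CPM over the 8 libraries. Red points (145 genes) and blue points (125 genes) passed the test of the difference between cell types, grey points did not, and the dashed line marks equal effects. Gdf15 and Zfp365 lie far to the right at a low height, Oas2 and H2-T24 lie high near or left of zero, and Cdkn1a, with a log2 difference of -0.18, lies near the line.

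A good part of the genes of antiviral defence rose more in fibroblasts than in endothelial cells. Of 39 interferon-stimulated genes tested, 14 had a positive log2 difference that passed the test and 1 had a negative one, with a median of 0.53, against a median of 0.01 over all genes tested. In fibroblasts 34 of the 39 rose, where 1.92% of all genes tested rose, and none fell, with a median log2 fold change of 0.89. In endothelial cells 22 rose, where 8.24% of all genes tested rose, and 1 fell, with a median of 0.49. Levels were mostly lower in fibroblasts: 34 of the 39 had a lower mean in sham fibroblasts than in sham endothelial cells (50% of all genes tested), and 27 were still lower in irradiated fibroblasts than in sham endothelial cells. Summed endothelial markers in fibroblast libraries were at 724.5 and 796.1 CPM after irradiation and at 761.2 and 809.4 CPM after sham treatment, and these ranges overlapped. The part of endothelial RNA in the fibroblast values of the interferon-stimulated genes was not tested. The count of 15 genes was 1 with all 36 libraries and 9 with the 8 of 28 days alone. It was 5 and 6 without the first and the second irradiated fibroblast library and 3 and 8 without the first and the second sham fibroblast library. It was 4 without the second irradiated endothelial library and 8 and 4 without the first and the second sham endothelial library.

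Oas2, a synthetase that activates RNA decay when it meets double-stranded RNA (chr5:120730333-120749886 in GRCm38.p6), had the largest positive log2 difference of the eligible genes. It was at 12.7 and 11.4 CPM in irradiated fibroblasts and at 2.66 and 2.61 CPM in sham fibroblasts. In endothelial cells it was at 89.1 and 47.7 CPM after irradiation and at 83.1 and 83.5 CPM after sham treatment. The fibroblast libraries did not overlap, while one irradiated endothelial library lay above and the other below both sham libraries. Oas2 rose by 2.19 ± 0.28 (log2, SE) in fibroblasts, and its log2 fold change in endothelial cells was -0.28 ± 0.19. The log2 difference was 2.47 ± 0.34 (edgeR adjusted p = 0.000506).

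Oas1a, another synthetase of this family, was at 10.3 and 9.32 CPM in irradiated fibroblasts and at 2.05 and 2.01 CPM in sham fibroblasts. It was at 35.0 and 27.5 CPM in irradiated endothelial cells and at 19.8 and 20.5 CPM in sham endothelial cells. Irradiated and sham libraries were apart in both cell types, and the gene rose by 2.27 ± 0.23 in fibroblasts and by 0.63 ± 0.17 in endothelial cells, a log2 difference of 1.64 ± 0.29 (edgeR adjusted p = 0.00517). Slfn2, which keeps T cells quiescent, was named after its values were seen: it rose by 1.82 ± 0.18 in fibroblasts and by 0.42 ± 0.13 in endothelial cells, a log2 difference of 1.40 ± 0.22 (edgeR adjusted p = 0.00201). Other genes of the list rose in both with no difference that passed the test. Isg15, a ubiquitin-like modifier, was at 46.7 and 36.9 CPM in irradiated and 11.5 and 14.2 CPM in sham fibroblasts, and at 80.3 and 74.1 CPM in irradiated and 38.6 and 37.9 CPM in sham endothelial cells. Its log2 difference was 0.68 with a 95% interval of 0.19 to 1.18 (edgeR adjusted p = 0.16). Ifi27l2a, an interferon-induced mitochondrial protein, was the 1 gene of the list with a negative log2 difference past the test, -0.72 ± 0.17 (edgeR adjusted p = 0.0372). It passed the test in 2 of the 8 fits with a library left out, those without the first irradiated library of either cell type.

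Interferon-inducible GTPases, which attack the vacuoles of intracellular microbes, showed the same contrast. Of 14 tested, 10 had a positive log2 difference that passed the test and none a negative one, with a median of 0.80. That count was 0 with all 36 libraries (edgeR adjusted p = 0.281 for Gbp9), 4 with the 8 libraries of 28 days alone and 6 with limma. In fibroblasts 12 of the 14 rose, where 1.92% of all genes tested rose. In endothelial cells 1 rose and 1 fell, near the shares of all genes tested, 8.24% and 7.57%. Gbp9 was at 26.0 and 25.1 CPM in irradiated fibroblasts and at 12.1 and 12.6 CPM in sham fibroblasts, against 159 and 180.4 CPM in irradiated and 166 and 183 CPM in sham endothelial cells. Its fibroblast groups were apart and its endothelial groups overlapped, and the log2 difference was 1.09 ± 0.15 (edgeR adjusted p = 0.000506). Iigp1 rose by 1.49 ± 0.20 in fibroblasts, with a log2 fold change of 0.07 ± 0.18 in endothelial cells and a log2 difference of 1.42 ± 0.27 (edgeR adjusted p = 0.0113). The call on Iigp1 was lost without the first irradiated fibroblast library (edgeR adjusted p = 0.0582), the first sham fibroblast library (0.0905) or the second sham endothelial library (0.0717). The count of 10 GTPases was 2 and 6 without the first and the second irradiated fibroblast library, 2 and 6 without the first and the second sham fibroblast library, 6 without the second irradiated endothelial library and 2 without the second sham endothelial library.

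Some genes of MHC class I presentation, which displays peptides to cytotoxic T cells, also rose more in fibroblasts than in endothelial cells. Of 19 tested, 7 had a positive log2 difference that passed the test and none a negative one, with a median of 0.27. In fibroblasts 11 rose and in endothelial cells 3 rose, where 1.92% and 8.24% of all genes tested rose. H2-T23, which presents signal peptides to natural killer receptors, was at 200.3 and 183 CPM in irradiated fibroblasts and at 131 and 128 CPM in sham fibroblasts, against 302 and 263 CPM in irradiated and 294 and 301 CPM in sham endothelial cells. Only the fibroblast groups were apart, and the log2 difference was 0.64 ± 0.11 (edgeR adjusted p = 0.0052). H2-T24, a class I-like gene of the same region (chr17:36003471-36020800), moved in opposite directions: it was at 11.5 and 10.8 CPM in irradiated and 3.30 and 4.65 CPM in sham fibroblasts, and at 52.1 and 58.8 CPM in irradiated and 74.6 and 74.9 CPM in sham endothelial cells. It rose by 1.47 ± 0.18 in fibroblasts and fell by 0.43 in endothelial cells (SE 0.13), a log2 difference of 1.90 ± 0.23 (edgeR adjusted p = 8.52e-05).

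The class I genes of the Q region and their regulator had large differences whose calls depended on single libraries. Nlrc5, the transactivator of class I genes, had a log2 difference of 2.04 ± 0.45, H2-Q5 one of 2.32 ± 0.41 and H2-Q7 one of 1.82 ± 0.39. They passed the test in 3, 7 and 3 of the 8 fits with a library left out, with the highest edgeR adjusted p at 0.143, 0.0703 and 0.141. The call on Nlrc5 was lost without any 1 of the 4 fibroblast libraries and without the second sham endothelial library. H2-Q5 was lost without the second sham fibroblast library, and so was H2-Q7, which was also lost without the first fibroblast library of either treatment and without the second endothelial library of either treatment. H2-Q7 and H2-Q9 had equal counts in each of the 8 libraries of 28 days. Class I genes are near copies of each other, so reads cannot be assigned to one of them with certainty. B2m, the shared light chain, rose in both, with a log2 difference of 0.27 and a 95% interval of -0.03 to 0.58. The count of 7 class I genes was 0 with all 36 libraries and 4 with limma. It was 1 without the first irradiated fibroblast library, 2 and 2 without the first and the second sham fibroblast library, and 2 and 1 without the second irradiated and the second sham endothelial library.

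**Figure D2:**
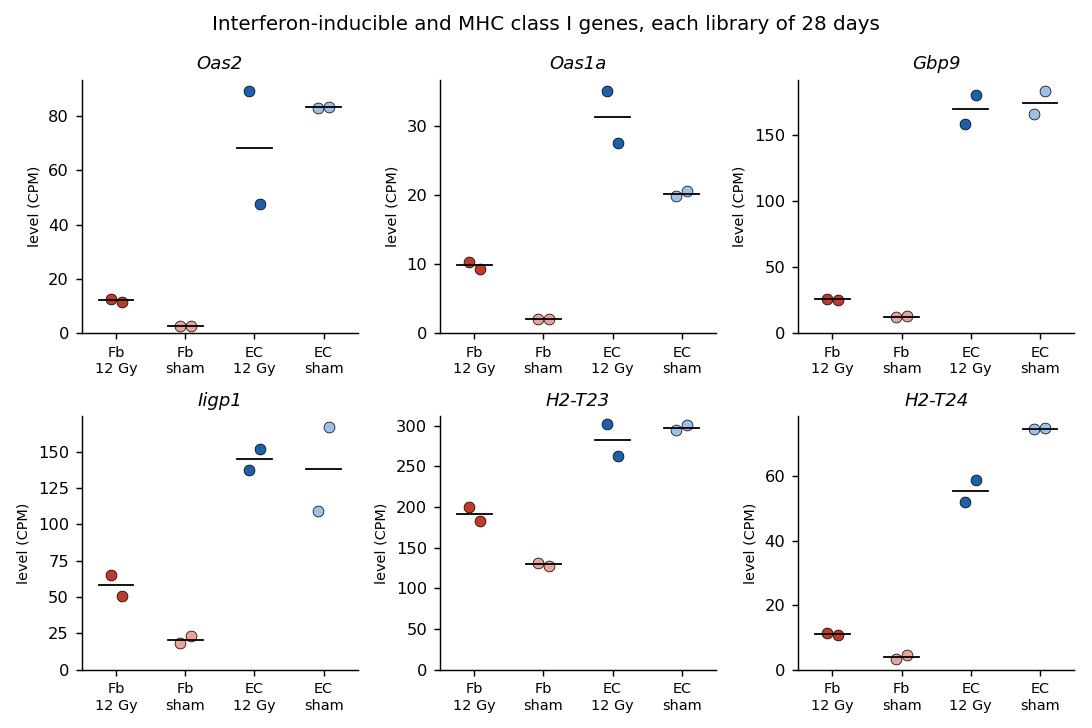
Level in CPM of 6 interferon-inducible and class I genes in each of the 8 libraries of 28 days. Points are libraries, bars are means of 2, and groups are irradiated fibroblasts (Fb), sham fibroblasts, irradiated endothelial cells (EC) and sham endothelial cells; in all 6 panels both irradiated fibroblast libraries lie above both sham fibroblast libraries and below every endothelial library.

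Promoter sequences of 2 interferon-stimulated genes are shown because most genes of the list rose together in fibroblasts and because promoters of such genes can hold the element through which interferon is known to act. The interferon-stimulated response element was searched on both strands as GAAA, any 2 bases and GAAA again, in windows of 250 bases before to 50 after each start (RefSeq, GRCm38.p6). It was found in 13 of the 28 listed genes that have a promoter sequence, 46.4%, against 3.99% of all 27025 gene symbols with one. The windows below run 5′ to 3′ on the strand of the gene, the minus strand for both, and capitals mark the element.
Oas1a, chr5:120907476-120907775: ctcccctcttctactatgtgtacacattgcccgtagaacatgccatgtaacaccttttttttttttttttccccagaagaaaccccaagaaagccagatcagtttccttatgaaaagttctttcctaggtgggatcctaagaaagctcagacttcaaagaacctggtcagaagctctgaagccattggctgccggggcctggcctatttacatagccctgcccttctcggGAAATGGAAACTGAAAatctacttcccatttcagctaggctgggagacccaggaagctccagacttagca
Trim30a, chr7:104465144-104465443: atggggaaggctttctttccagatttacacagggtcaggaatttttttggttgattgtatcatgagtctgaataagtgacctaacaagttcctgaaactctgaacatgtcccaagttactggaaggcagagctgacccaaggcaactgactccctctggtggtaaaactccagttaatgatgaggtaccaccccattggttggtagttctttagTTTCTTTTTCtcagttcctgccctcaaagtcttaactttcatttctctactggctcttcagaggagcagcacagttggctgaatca
In Oas1a 2 overlapping matches begin 20 and 14 bases before the start, and in Trim30a, an inhibitor of inflammatory signalling, 1 match on the opposite strand begins 36 bases before it. Trim30a had a log2 difference of 0.65 ± 0.13 (edgeR adjusted p = 0.0113), and it passed the test in 5 of the 8 fits with a library left out, being lost without the first fibroblast library of either treatment and without the second sham endothelial library. A match is a description of the sequence, and binding was not measured.

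Targets of p53 rose in both cell types, and a subset rose far more in endothelial cells. Of 35 tested, 24 rose in fibroblasts and none fell. In endothelial cells 24 rose, and 3 fell, where 7.57% of all genes tested fell. The log2 difference passed the test for 11 of them, negative for 10 and positive for 1, with a median of -0.14. The count of 11 was 5 with all 36 libraries. It was 7 without the second irradiated fibroblast library, 6 without the second sham fibroblast library and 7 without the second sham endothelial library.

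Zfp365, a zinc finger protein that limits replication stress (chr10:67886105-67912662), had the most negative log2 difference of the eligible genes. It was at 30.3 and 33.9 CPM in irradiated fibroblasts and at 17.7 and 17.0 CPM in sham fibroblasts. In endothelial cells it was at 28.9 and 31.5 CPM after irradiation and at 3.30 and 2.50 CPM after sham treatment. The irradiated libraries of both cell types overlapped, and the sham libraries were apart. Zfp365 rose by 0.89 ± 0.11 in fibroblasts and by 3.41 ± 0.14 in endothelial cells, a log2 difference of -2.52 ± 0.18 (edgeR adjusted p = 3.3e-07).

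Gdf15, a secreted stress hormone (chr8:70629393-70632470), was at 17.8 and 16.8 CPM in irradiated and 7.62 and 6.30 CPM in sham fibroblasts. It was at 159 and 115 CPM in irradiated and 12.6 and 9.75 CPM in sham endothelial cells. Irradiated endothelial libraries were far above all others, and the log2 difference was -2.31 ± 0.27 (edgeR adjusted p = 6.74e-05). Zmat3, an RNA-binding regulator of splicing, rose by 0.77 ± 0.11 in fibroblasts and by 2.38 ± 0.11 in endothelial cells. Its levels were 86.7 and 103 CPM in irradiated and 55.6 and 55.4 CPM in sham fibroblasts, and 78.2 and 90.0 CPM in irradiated and 14.2 and 17.8 CPM in sham endothelial cells. As for Zfp365, irradiated libraries overlapped between cell types and sham libraries did not.

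Phlda3, an inhibitor of Akt signalling, had a log2 difference of -1.42 ± 0.11 (edgeR adjusted p = 4.19e-07). Sesn2, a sestrin that restrains mTORC1, had one of -1.06 ± 0.14, and Bax, which opens the mitochondrial outer membrane in apoptosis, had one of -0.90 ± 0.15; both were named after their values were seen. Each of these 3 rose in both cell types. The best known targets rose by amounts whose difference did not pass the test. Cdkn1a, the inhibitor p21 that halts the cycle, was at 499 and 481 CPM in irradiated and 239 and 205 CPM in sham fibroblasts, and at 1123 and 1031 CPM in irradiated and 445 and 417 CPM in sham endothelial cells. Its log2 difference was -0.18 with a 95% interval of -0.59 to 0.24 (edgeR adjusted p = 0.701). Mdm2, the ubiquitin ligase that degrades p53, had a log2 difference of -0.22 with a 95% interval of -0.53 to 0.08. Fas, a death receptor, was the 1 target with a positive log2 difference past the test, 1.10 ± 0.24 (edgeR adjusted p = 0.0203): it fell by 0.97 in endothelial cells (SE 0.16) and had a log2 fold change of 0.13 ± 0.17 in fibroblasts. Fas passed the test in 1 of the 8 fits with a library left out, that without the first irradiated endothelial library. Ccng1, a cyclin that feeds back on p53, had a log2 difference of -0.48 ± 0.12 (edgeR adjusted p = 0.0388) and also passed in 1 of those 8 fits, the same one.

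**Figure D3:**
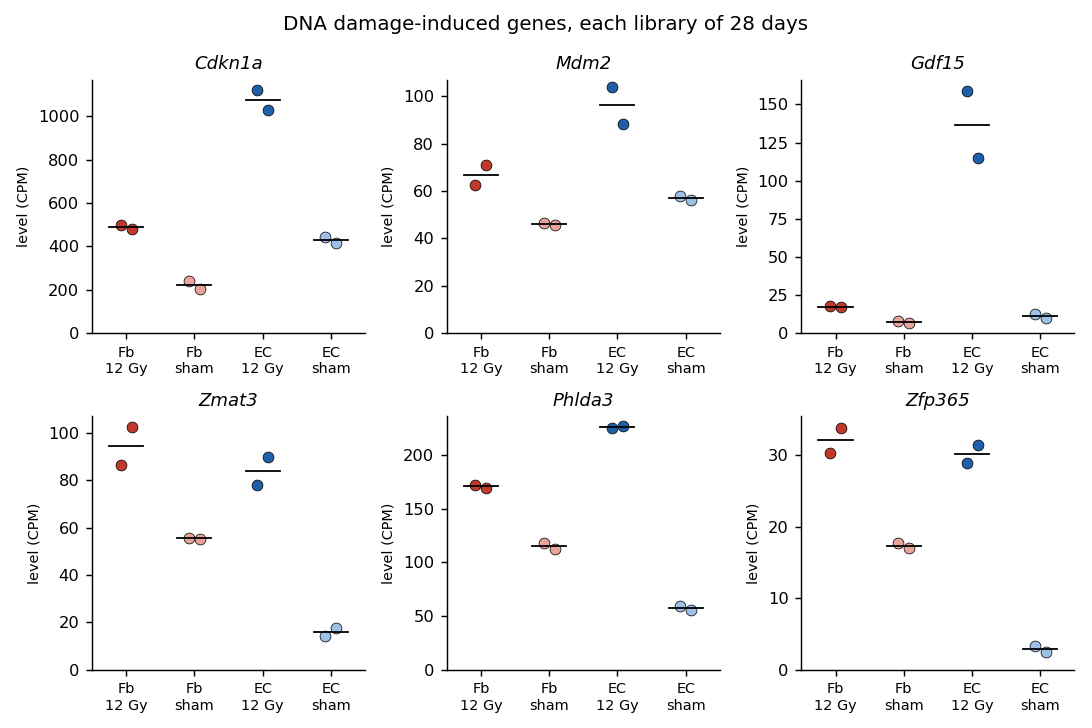
Level in CPM of 6 genes of the p53 list in each of the 8 libraries of 28 days, with points for libraries and bars for means of 2, in irradiated fibroblasts (Fb), sham fibroblasts, irradiated endothelial cells (EC) and sham endothelial cells. Cdkn1a and Mdm2 rose in both cell types with no difference past the test, while Gdf15, Zmat3, Phlda3 and Zfp365 rose more in endothelial cells, and for Zmat3 and Zfp365 the irradiated libraries of both cell types overlap.

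Genes of mitosis and cytokinesis rose in both cell types, and no difference passed the test. Of 32 tested, 31 rose in fibroblasts and 32 in endothelial cells, with median log2 fold changes of 1.98 and 1.74. The edgeR test called 0 of the 32 for the difference, where 1.84% of all genes tested passed. At an unadjusted p under 0.05 there were 10, against 2471 of all 15674 genes tested. DESeq2 called 3 and limma on log2(RPKM + 1) called 5. Mki67, the proliferation antigen, was at 16.4 and 21.8 CPM in irradiated and 3.47 and 3.53 CPM in sham fibroblasts, and at 53.9 and 61.6 CPM in irradiated and 14.2 and 16.5 CPM in sham endothelial cells. Its log2 difference was 0.54 with a 95% interval of -0.11 to 1.19. Top2a, which untangles chromosomes, had a log2 difference of 0.38 with a 95% interval of -0.29 to 1.05. Both intervals include 0.53, the median log2 difference of the interferon-stimulated genes.

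Promoters of 2 mitosis genes are shown, since the list moved together in both cell types. The cell cycle genes homology region, an element bound by repressor and activator complexes of cell cycle genes, was searched as TTTGAA on both strands. It was found in 22 of the 28 listed genes with a promoter sequence, 78.6%, against 20.2% of all gene symbols with one. The CCAAT box, searched as CCAAT on both strands, was found in 23 of the 28, 82.1%, against 41.1% of all these gene symbols. Capitals mark the TTTGAA element or its reverse complement, and both windows run 5′ to 3′ on the minus strand.
Anln, chr9:22389157-22389456: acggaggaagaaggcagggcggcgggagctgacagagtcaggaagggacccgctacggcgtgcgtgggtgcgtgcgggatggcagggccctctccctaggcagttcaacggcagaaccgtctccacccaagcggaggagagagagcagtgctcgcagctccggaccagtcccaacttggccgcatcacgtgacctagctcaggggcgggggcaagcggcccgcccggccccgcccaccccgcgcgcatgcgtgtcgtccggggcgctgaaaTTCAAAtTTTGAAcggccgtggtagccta
Cdc20, chr4:118437294-118437593: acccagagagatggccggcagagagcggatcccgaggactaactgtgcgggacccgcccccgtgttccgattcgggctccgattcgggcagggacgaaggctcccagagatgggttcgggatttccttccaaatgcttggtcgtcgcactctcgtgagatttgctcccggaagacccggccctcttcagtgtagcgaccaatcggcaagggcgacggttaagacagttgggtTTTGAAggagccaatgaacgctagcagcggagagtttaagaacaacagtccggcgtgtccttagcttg
Anln, a scaffold of the contractile ring, had a log2 difference of -0.81 ± 0.21 (edgeR adjusted p = 0.0516), and Cdc20, an activator of the anaphase-promoting complex, had one of 0.86 ± 0.22 (edgeR adjusted p = 0.0535). In Anln the 2 matches begin 21 and 28 bases after the start, and in Cdc20 the match begins 18 bases before it.

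Most genes of DNA replication had a negative log2 difference, and few passed the test of the difference. Of 30 tested, 3 rose in fibroblasts, where 1.92% of all genes tested rose. In endothelial cells 19 rose and 1 fell, where 8.24% of all genes tested rose and 7.57% fell. The log2 difference passed the test for 3, where 1.84% of all genes tested passed: E2f1 and Cdc45 lower and Pold1 higher. It was positive for 3 of the 30, with a median of -0.26 over the list. At an unadjusted p under 0.05 the edgeR test held 9 of the 30, against 2471 of all 15674 genes tested. DESeq2 called 4 and limma called 5. E2f1, the transcription factor that starts S phase, was at 6.73 and 6.64 CPM in irradiated and 6.57 and 6.00 CPM in sham fibroblasts, and at 8.23 and 11.8 CPM in irradiated and 2.79 and 3.32 CPM in sham endothelial cells. The fibroblast groups were close together and the endothelial groups were apart, with a log2 difference of -1.61 ± 0.24 (edgeR adjusted p = 0.00135). Cdc45, part of the replicative helicase, had a log2 difference of -1.45 ± 0.26 (edgeR adjusted p = 0.00595). Pold1, the catalytic subunit of a replicative polymerase, had one of 0.61 ± 0.13 and passed the test in 2 of the 8 fits with a library left out, those without the first irradiated endothelial and the second irradiated fibroblast library. Ccnd1, the cyclin that drives cells through G1 (named after its values were seen), rose by 0.38 ± 0.09 in fibroblasts and by 1.62 ± 0.09 in endothelial cells, a log2 difference of -1.24 ± 0.12 (edgeR adjusted p = 1.14e-05). Cdkn2c, an inhibitor of the kinases that Ccnd1 activates, rose by 0.97 ± 0.13 in endothelial cells, with a log2 fold change of -0.03 ± 0.12 in fibroblasts.

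A few genes of vessel growth differed between the cell types. Of 21 genes of the apelin axis and tip cells tested, 4 had a negative log2 difference that passed the test (Apln, Pgf, Angpt2 and Nid2) and 1 a positive one (Cxcr4), while 16 passed no test of the difference. Angpt2, an angiopoietin, lost the call without the second irradiated fibroblast library (edgeR adjusted p = 0.07), the first sham fibroblast library (0.102) or the first sham endothelial library (0.0534), with all 36 libraries (0.0781) and with the 8 of 28 days alone. Cxcr4, a chemokine receptor, lost it without the first or the second irradiated fibroblast library (0.0742 and 0.0868), the first sham fibroblast library (0.138), the second irradiated endothelial library (0.0792) or the second sham endothelial library (0.0784). Pgf, placenta growth factor, a ligand of the receptor Flt1 (chr12:85166637-85177785), moved in opposite directions. It was at 54.4 and 53.8 CPM in irradiated and 94.6 and 84.5 CPM in sham fibroblasts, and at 45.0 and 36.4 CPM in irradiated and 19.8 and 20.2 CPM in sham endothelial cells. Groups were apart within both cell types: Pgf fell by 0.72 in fibroblasts (SE 0.10) and rose by 1.03 ± 0.11 in endothelial cells, a log2 difference of -1.75 ± 0.15 (edgeR adjusted p = 2.83e-06).

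Apln, the peptide apelin made by tip cells, was at 2.81 and 2.43 CPM in irradiated and 1.45 and 1.48 CPM in sham fibroblasts, and at 404 and 484 CPM in irradiated and 42.7 and 51.2 CPM in sham endothelial cells. It rose by 3.24 ± 0.21 in endothelial cells. In fibroblasts it was within a few CPM of zero in every library, beside Pecam1 at 9.14 to 10.6 CPM in the same libraries, and the part of endothelial RNA in those values was not tested. Its log2 difference was -2.40 ± 0.49 (edgeR adjusted p = 0.0161), and the call was lost without the second irradiated fibroblast library (adjusted p = 0.0616) and without the first or the second sham fibroblast library (0.103 and 0.117).

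Nid2, a nidogen that links laminin and collagen in the basement membrane, had a log2 difference of -0.77 ± 0.12 (edgeR adjusted p = 0.0013), rising by 0.87 ± 0.08 in endothelial cells. Cd34, a sialomucin of endothelium and of fibroblast progenitors, was at 1562 and 1466 CPM in irradiated and 1820.4 and 1798 CPM in sham fibroblasts, and at 1162 and 1164 CPM in irradiated and 788 and 825 CPM in sham endothelial cells. It rose in endothelial cells alone, with a log2 difference of -0.79 ± 0.12 (edgeR adjusted p = 0.00125). Plau, the urokinase that starts plasminogen activation, and Vash1, a secreted inhibitor of vessel growth, were named after their values were seen. Plau had a log2 difference of -1.57 ± 0.16 and Vash1 one of -0.97 ± 0.17. Prn and Ift122 were also among the most negative, at -2.37 ± 0.31 and -1.75 ± 0.18. Prn is the name of a transcript that spans the neighbouring genes Prnp and Prnd, so its reads may belong to either. Ift122 is a subunit of the transport machinery of cilia. Both rose in endothelial cells, by 2.48 ± 0.21 and by 1.82 ± 0.13.

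Genes that fell in endothelial cells and passed no test in fibroblasts gave 99 of the 155 positive differences. Ahr, the aryl hydrocarbon receptor (chr12:35497979-35534989), was at 3.92 and 3.77 CPM in irradiated and 2.66 and 2.90 CPM in sham fibroblasts, and at 18.2 and 19.1 CPM in irradiated and 46.6 and 48.6 CPM in sham endothelial cells. It fell by 1.35 in endothelial cells (SE 0.12), and its log2 fold change in fibroblasts was 0.46 ± 0.18, which did not pass the test. The log2 difference was 1.82 ± 0.21 (edgeR adjusted p = 7.93e-05). Cyp1a1, the enzyme that Ahr induces, had no read in the 4 fibroblast libraries, and it was at 0.66 and 0.91 CPM in irradiated and 19.6 and 8.11 CPM in sham endothelial cells. It fell by 4.13 in endothelial cells (SE 0.45, edgeR adjusted p = 1.52e-05), and with no fibroblast read its difference between cell types cannot be estimated from these counts. Igfbp3, a carrier of insulin-like growth factors, was at 231 and 238 CPM in irradiated and 260.0 and 229 CPM in sham fibroblasts, against 124 and 100.5 CPM in irradiated and 199 and 227 CPM in sham endothelial cells, a log2 difference of 0.86 ± 0.15 (edgeR adjusted p = 0.0059).

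Further genes of this kind were named after their values were seen. Xdh, xanthine dehydrogenase of purine breakdown, fell by 1.39 in endothelial cells (SE 0.10), with a log2 difference of 1.51 ± 0.13. Pkp4, a plakophilin of cell junctions, fell by 1.23 (SE 0.11), and Prickle1, of planar cell polarity, fell by 1.10 (SE 0.10) there. Prg4, the lubricant protein of joint surfaces, and Pth1r, the receptor of parathyroid hormone, had higher levels in fibroblasts than in endothelial cells. Prg4 was at 240.1 and 350.2 CPM in irradiated and 222 and 247 CPM in sham fibroblasts, against 23.3 and 27.8 CPM in irradiated and 67.8 and 63.1 CPM in sham endothelial cells. Fibroblast markers did not move as one in endothelial cells. Pdgfra fell by 0.86 (SE 0.15), and of 18 fibroblast markers tested 5 fell and 1 rose there, with a median of -0.18. Over all genes tested 7.57% fell and 8.24% rose in endothelial cells. Summed fibroblast markers were at 4981 and 5084 CPM in irradiated and 5003 and 7085 CPM in sham endothelial libraries, and these ranges overlapped. The part of fibroblast RNA in the fall of Prg4 and Pth1r was not tested.

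Among the 7 genes that rose in one cell type and fell in the other, 6 rose in fibroblasts and fell in endothelial cells (Gbp7, Ggta1, Alpl, Aldh1l1, H2-T24 and Gm7609) and 1, Pgf, did the reverse. Of the 6, 5 had a mean of at least 1 CPM in both cell types, and Gm7609, a predicted name, did not. Its results with a library left out are not given here. Alpl, tissue-nonspecific alkaline phosphatase, was at 36.6 and 34.4 CPM in irradiated and 24.5 and 21.5 CPM in sham fibroblasts, and at 99.1 and 119.8 CPM in irradiated and 162 and 169 CPM in sham endothelial cells. Its groups were apart in both cell types, with a log2 difference of 1.22 ± 0.17 (edgeR adjusted p = 0.000506). Aldh1l1, a folate enzyme, rose by 1.16 ± 0.24 in fibroblasts and fell by 0.68 in endothelial cells (SE 0.15). Ggta1, the enzyme of the alpha-gal sugar, rose by 0.56 ± 0.10 in fibroblasts and fell by 0.32 in endothelial cells (SE 0.09). Gbp7 passed the test of the difference in 7 of the 8 fits with a library left out and lost the call without the first sham fibroblast library (edgeR adjusted p = 0.058).

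**Figure D4:**
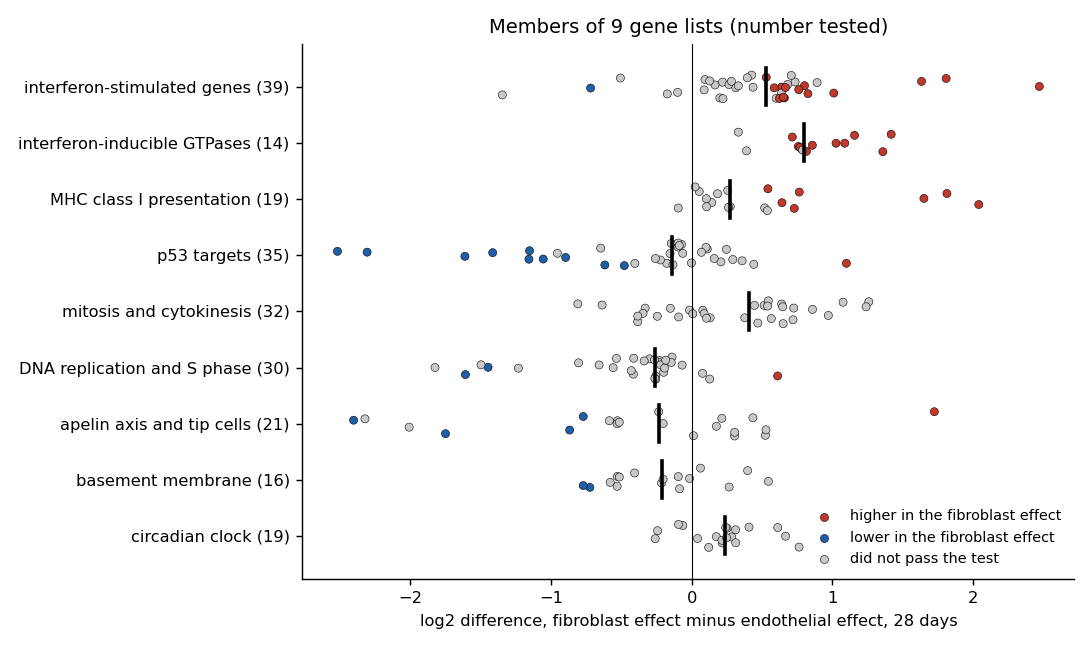
Log2 difference, fibroblast effect minus endothelial effect, for the tested members of 9 gene lists at 28 days. Points are genes, black bars are medians of the lists, red points were higher and blue points lower in the fibroblast effect by the test and grey points passed no test; interferon-inducible GTPases have a median of 0.80 and p53 targets one of -0.14.

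Of 31 genes of fibrillar collagens and interstitial matrix, 0 had a difference that passed the edgeR test, where 1.84% of all genes tested passed. At an unadjusted p under 0.05 there was 1, against 2471 of all 15674 genes tested. DESeq2 called 1 and limma called 0. Col1a1, a chain of type I collagen, was at 5966 and 6619 CPM in irradiated and 5265 and 5098 CPM in sham fibroblasts, against 233 and 297 CPM in irradiated and 221 and 315 CPM in sham endothelial cells, with a log2 difference of 0.30 and a 95% interval of -0.14 to 0.73. Postn, a matrix protein of activated fibroblasts, had a log2 difference of 0.29 with a 95% interval of -0.14 to 0.72. The edgeR test also called 0 of 19 genes of the circadian clock, 20 of cholesterol synthesis, 26 of the TGF-beta pathway and 17 of the Notch pathway. With 1.84% of all genes called, 0 calls in lists of these sizes are near the share over all genes. At an unadjusted p under 0.05 these lists held 7, 6, 4 and 4. DESeq2 called 1 clock gene, and neither DESeq2 nor limma called another gene of these 4 lists. In endothelial cells 9 clock genes fell and 5 cholesterol genes rose, where 7.57% of all genes tested fell and 8.24% rose. In fibroblasts 1 clock gene fell, where 0.3% of all genes tested fell, and no cholesterol gene changed past the test. Ccl2, a chemokine for monocytes, rose in both, with a log2 difference of -0.76 and a 95% interval of -1.39 to -0.13 (edgeR adjusted p = 0.225).

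Erythroid RNA moved with irradiation in both cell types. Of 9 erythroid markers tested, 6 fell in fibroblasts and 3 in endothelial cells, where 0.3% and 7.57% of all genes tested fell. The edgeR test of the difference called 0 of these markers, also at an unadjusted p under 0.05 and by DESeq2 and limma. Their summed level was 355.7 and 770.3 CPM in irradiated and 2571 and 1661 CPM in sham fibroblasts, and 1422 and 593.3 CPM in irradiated and 2982 and 2242 CPM in sham endothelial cells. Macrophage markers summed to 31.95 and 32.4 CPM in irradiated and 28.89 and 32.19 CPM in sham fibroblasts, and to 50.17 and 46.53 CPM in irradiated and 56.44 and 62.12 CPM in sham endothelial cells. Of 7 platelet markers, 4 fell in endothelial cells, where 7.57% of all genes tested fell, and none changed past the test in fibroblasts. They summed to 25.61 and 23.8 CPM in irradiated and 28.0 and 27.97 CPM in sham fibroblasts, and to 21.43 and 30.54 CPM in irradiated and 37.22 and 73.13 CPM in sham endothelial cells. Of 20 cardiomyocyte markers, 2 fell in endothelial cells, near the share of all genes tested, 7.57%, and none changed past the test in fibroblasts. The log2 difference was positive for 18 of these markers with a median of 0.49. They summed to 834.7 and 918.6 CPM in irradiated and 818.3 and 882.2 CPM in sham fibroblasts, and to 1074 and 952.6 CPM in irradiated and 1208 and 1145 CPM in sham endothelial cells. The edgeR test of the difference called 0 of the macrophage, platelet and cardiomyocyte markers, where 1.84% of all genes tested passed. At an unadjusted p under 0.05 there were 1, 2 and 4, against 2471 of all 15674 genes tested. DESeq2 called 1 cardiomyocyte and limma 1 platelet marker. The part of these cells in the results above was not tested.

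The same difference was also fitted at the earlier times. It passed the test for 1507 genes at 6 hours, 9.61% of those tested (4.47% positive and 5.15% negative). At 7 days it passed for 103 genes, 0.657% of those tested (0.389% positive and 0.268% negative). Of the 289 genes of 28 days, 93 also passed at 6 hours and 39 at 7 days. The log2 difference of Zfp365 passed at each time, with -2.87 ± 0.17 at the 6-hour, -2.68 ± 0.17 at the 7-day and -2.52 ± 0.18 at the 28-day time point. Gdf15 had -1.70 ± 0.27, -2.38 ± 0.27 and -2.31 ± 0.27 at these times, each past the test. Zmat3 had -0.36 ± 0.15, -1.02 ± 0.15 and -1.61 ± 0.15, of which the first did not pass. Of 14 interferon-inducible GTPases 13 passed at 6 hours, 2 at 7 days and 10 at 28 days, with medians of 1.59, 0.74 and 0.80. Of 19 class I genes 11, 1 and 7 passed at these times, with medians of 0.64, 0.45 and 0.27. Of 39 interferon-stimulated genes 12, 6 and 15 passed, with medians of 0.45, 0.51 and 0.53. Oas2 had 1.10 ± 0.36, 1.84 ± 0.36 and 2.47 ± 0.34, of which the first did not pass (edgeR adjusted p = 0.0628). H2-T24 had -0.05 ± 0.25, 0.40 ± 0.24 and 1.90 ± 0.23, and only the value of 28 days passed. E2f1 had 0.63 ± 0.26, 0.89 ± 0.26 and -1.61 ± 0.24, and again only that of 28 days passed. Whether these differences changed between times was not tested. Mki67 had a log2 difference of 2.44 ± 0.34 at 7 days that passed the test, and 0.54 ± 0.31 at 28 days that did not. Of 32 genes of mitosis and cytokinesis 15 passed at 7 days, with a median of 1.48. At 6 hours and at 28 days 0 of them passed, with medians of 0.40 and 0.41.

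**Figure D5:**
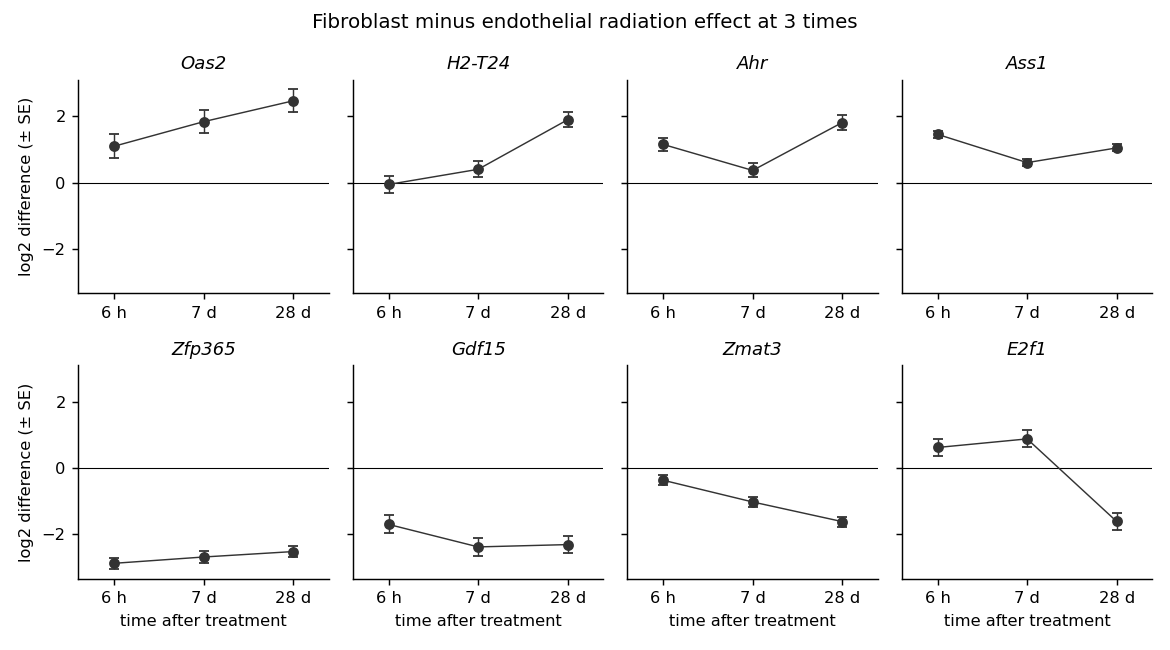
Log2 difference ± SE, fibroblast effect minus endothelial effect, of 8 genes at 6 hours, 7 days and 28 days after treatment, with positive values where the fibroblast effect was higher. Zfp365 and Gdf15 are below zero at every time, and E2f1 is below zero at 28 days only. Ass1, an enzyme of arginine synthesis named after its values were seen, whose near copy Gm5424 may share its reads, is above zero at every time, with a log2 difference of 1.05 ± 0.10 at 28 days.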

How the data were processed

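RNA was prepared with RNeasy kits and libraries with a SMARTer mRNA-seq kit, per the labels. Builds named in the submitters' processing notes are GRCm38 and mm10, and names of an aligner or counter were not given in the sources used here. Whole read counts per RefSeq transcript are what the authors deposited, per the file headers. A second deposited column is headed TPM, but its values equal RPKM (largest difference 1.8e-12), and RPKM is the name used below. Another 30 read columns, from samples outside these libraries, stayed out. Each of 24061 gene names was represented by its transcript with the highest read total in the 36 libraries. In 25 names the symbol had been turned into a date.

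Counts of the 24 fibroblast and endothelial libraries entered 1 edgeR fit (edgeR 4.0.16 in R 4.3.3) of 12 group means, with TMM, filterByExpr (minimum count 10, total 15), glmQLFit and glmQLFTest. SE is that of the fitted contrast, tests are two-sided, and p-values were adjusted by Benjamini and Hochberg over 15674 genes. Estimated separately, the biological coefficient of variation came to 0.0677 in fibroblast and 0.0958 in endothelial libraries. Alternatives used DESeq2 1.42.0, limma 3.58.1 on log2(RPKM + 1), other scalings, filters, library sets and single libraries left out. The fit was tested on simulated counts.

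The comparison, gene lists and tests were chosen with earlier results of these data known. Eligible genes passed the test with a mean of at least 5 CPM over the 8 libraries, at least 1 CPM in each cell type, library ratios apart and no predicted name. Named were the 8 most positive and the 8 most negative of them, 3 per list by p, the 4 opposite genes with the smallest p and a fixed set; genes outside this rule, Slfn2, B2m, Sesn2, Bax, Fas, Ccnd1, Cxcr4, Plau, Vash1, Xdh, Pkp4, Prickle1, Prg4, Pth1r, Ggta1, Ass1, Ifi27l2a and those of the last section, were chosen after their values were seen. Promoters shown are those of the 2 genes of each list with the smallest p that hold the motif. Over genes, replicate deviations of irradiated and sham libraries at 28 days correlated at 0.134 in fibroblasts and 0.02 in endothelial cells. Whether equal replicate numbers pair fibroblast with endothelial libraries was not tested. A result for 1 gene is not reported here.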

Additional observations from a re-analysis of the deposited data

Results flagged for a closer look

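The radiation effect differed between fibroblasts and endothelial cells, by the test of the difference itself, in 289 genes at 28 days. Among those named by rule, the log2 difference (fibroblast effect minus endothelial effect) was 2.47 for Oas2, 2.32 for H2-Q5 and 2.04 for Nlrc5. It was 1.90 for H2-T24, 1.84 for Aldh1l1, 1.82 for Ahr and 1.22 for Alpl. For H2-Q7 and H2-Q9, which have equal counts in the 8 libraries of 28 days, the log2 difference was 1.82. It was -2.52 for Zfp365, -2.40 for Apln, -2.37 for Prn, -2.31 for Gdf15, -1.75 for Pgf, -1.75 for Ift122, -1.61 for Zmat3 and -1.61 for E2f1. Groups of 2 libraries are too small to look for single outlying samples.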

How the results depend on the processing

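The count of 289 genes was 820 with no filter beyond 1 read, 555 with DESeq2, 453 with limma on log2(RPKM + 1), 155 with the 8 libraries of 28 days alone and 46 with all 36 libraries, whose fit adds the myocyte spread; it was 85 to 1212 with 1 library left out. The fibroblast count of 348 was 598 with no filter and 188 with all 36 libraries, and 189 to 374 with 1 library left out. The endothelial count of 2478 was 991 with all 36 libraries and 977 to 3263 with 1 left out. With the replicate number as a block 203 genes passed, fewer by under 1.5 times. Whether the numbers pair libraries across cell types was not tested. Fits with all 36 libraries called 5 p53 targets, 1 interferon-stimulated gene, 0 GTPases and 0 class I genes; the 8 libraries alone called 9 interferon-stimulated genes, 4 GTPases and 1 mitosis gene; limma called 6 GTPases, 4 class I genes and 5 mitosis genes. Mitosis genes numbered 3 with no filter and with DESeq2, and 2 with a mean of at least 5 CPM or with at least 1 CPM in both cell types. With 1 library left out the ranges were 6 to 12 p53 targets, 3 to 19 interferon-stimulated genes, 2 to 11 GTPases, 1 to 8 class I genes and 0 to 2 mitosis genes. A left-out library leaves its group with 1, assumed to vary like the others. The causes of these shifts were not tested. Over 95 named genes and 19 alternatives, 237 values lost the call, 20 gained it and 1542 kept their side, all with their direction. Unadjusted, 2471 genes had p under 0.05. Genes near zero in one cell type, such as Apln in fibroblasts, are limited by depth.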

Other observations

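Single genes, metabolic enzymes among them, chosen after their values were seen and not tested as a group, had differences past the test. Mthfd2, a mitochondrial folate enzyme, was at 21.7 and 22.7 CPM in irradiated and 18.1 and 17.7 CPM in sham fibroblasts, and at 11.5 and 10.6 CPM in irradiated and 3.78 and 3.64 CPM in sham endothelial cells. The endothelial groups were far apart, and the log2 difference was -1.26 ± 0.21 (edgeR adjusted p = 0.00347). Atf5, a stress transcription factor, had a log2 difference of -0.77 ± 0.13, Psat1, of serine synthesis, one of -0.76 ± 0.18, Slc7a5, a carrier of large neutral amino acids, one of -0.81 ± 0.17, and Aldh18a1, of proline synthesis, one of -0.68 ± 0.14. These 5 rose in endothelial cells with no change past the test in fibroblasts. Chac1, which breaks down glutathione, fell in endothelial cells, with a log2 difference of 1.67 ± 0.37, and Aldh1l1, a folate enzyme, also fell there, with a log2 difference of 1.84 ± 0.28. Mthfd2 and Atf5 passed the test in all 8 fits with a library left out. Psat1 and Chac1 passed without the first irradiated endothelial library and in none of the other 7 such fits. Slc7a5 passed without that library, the second sham endothelial or the second sham fibroblast library, and Aldh18a1 passed without that library or the second fibroblast library of either treatment; both lost the call without any other.

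Nnmt, a methyltransferase of nicotinamide, Capg, a protein that caps actin filaments, and Uchl1, a deubiquitinase, were likewise chosen after their values were seen, rose in endothelial cells and passed the test of the difference in all 8 fits with a library left out. Capg was at 104 and 95.2 CPM in irradiated and 98.4 and 89.8 CPM in sham fibroblasts, and at 93.8 and 95.8 CPM in irradiated and 40.9 and 37.6 CPM in sham endothelial cells, a log2 difference of -1.19 ± 0.13 (edgeR adjusted p = 1.89e-05). Irradiated endothelial libraries lay within the range of the fibroblast libraries, and sham endothelial libraries lay below it. Uchl1 had a log2 difference of -1.29 ± 0.15 and Nnmt one of -1.13 ± 0.17.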
